A study of Mus musculus with 4 samples.

Results

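The nuclear genes for subunits of the mitochondrial respiratory chain and ATP synthase were followed in the second heart field (SHF) region of mouse embryos with and without Hoxb1. Members were chosen by symbol (Ndufa, Ndufb, Ndufc, Ndufs and Ndufv genes, Sdha to Sdhd, Uqcr genes, Cox4i and Cox5 to Cox8 genes, and Atp5 genes) and by a mean over the 4 libraries of 10 normalised counts or more. This gave 81 genes of 15803 listed, and no gene with such a symbol had a lower mean. They fall into 37 genes of complex I, 4 of complex II, 8 of complex III, 15 of complex IV and 17 of complex V. Within this rule only the minimum mean uses measured values, but the rule was set with earlier results of these data known.

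The tissue was microdissected at E8.5, flash frozen and sequenced as amplified cDNA in 4 libraries, of which 2 came from wild-type embryos (WT) and 2 from mutants of Hoxb1 (genotype label Hoxb1Mu, Hoxb1-/- in the study, a constitutive loss). Per the study, RNA of several embryos of a genotype was pooled for each replicate, and no sorting was done, so a library holds all cell types of the dissected region. In such bulk RNA, fewer cells of a type and less RNA per cell cannot be told apart. Replicates are separate libraries, and p-values measure only the spread between them, which may be partly technical.

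Between 31331595 and 34383760 reads per library fell on the listed genes. Hoxb1, the mutated homeobox gene, had 682 and 617 normalised counts in WT and 137 and 167 in Hoxb1Mu, so some of its reads remained in both mutant libraries. All 12 SHF progenitor markers examined, among them Isl1 and Tbx1, were read in every library. Of these, 7 were higher and 5 lower in Hoxb1Mu. Their medians relative to the WT mean were -0.095 in Hoxb1Mu 1 and 0.14 in Hoxb1Mu 2. DESeq2 called 1 of the 12 higher and 1 lower (over all genes 2.01% higher and 2.71% lower). Markers of several other tissues differed between the genotypes as well. The 11 cardiomyocyte markers were all higher in both Hoxb1Mu libraries than in either WT library (summed 53278 and 52893 in WT, 70126 and 82264 in Hoxb1Mu), and DESeq2 called 9 of them. The study had already reported several of these as higher from the same data, among them Myh7, Myl2, Myl3, Actn2, Nppa and Tnnt2. The list was chosen with earlier results known, so this rise is not an independent observation. The 9 yolk sac endoderm markers were all lower (summed 117643 and 108855 in WT, 71653 and 32553 in Hoxb1Mu), though neither DESeq2 nor limma called any. Of 6 neural crest markers, 5 were higher in both and 4 were called by DESeq2. Over all genes, DESeq2 called 2.01% higher, and 26.4% had both Hoxb1Mu libraries above both WT libraries. Of 4 neural tube markers DESeq2 called 2 as higher, and of 5 endothelial markers none (median log2 fold change 0.0037). Red cell markers stood apart in WT 2 (Hbb-bh1 at 8973 normalised counts there, against 272, 1272 and 414 in WT 1, Hoxb1Mu 1 and Hoxb1Mu 2). None of these markers was at 0 in any library, and their part in the results below was not tested.

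Complex I takes electrons from NADH and complex II from succinate, complex III passes them from ubiquinol to cytochrome c, and complex IV hands them to oxygen. Complexes I, III and IV pump protons, and complex V, the ATP synthase, lets them flow back through a rotating ring of c subunits to make ATP. Most subunits are encoded in the nucleus and imported, while a few are encoded by mitochondrial DNA, and the embryonic heart is known to shift from glycolysis toward oxidative metabolism as its muscle matures.

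Most of these genes were slightly lower in the mutant. Taking Hoxb1Mu relative to WT, the log2 fold change was below 0 for 67 of 81 members (82.7%) and above 0 for 14, where 49.9% of all 15760 genes tested were below 0. The median log2 fold change of the members was -0.095, a change of -6.35%, against 0.00061 over all genes. The same median taken in each WT library, relative to the WT mean, was 0.0021 in WT 1 and -0.0021 in WT 2. For a single member, the median size of the log2 fold change was 0.11, where the median difference was 0.054 between the 2 WT libraries and 0.078 between the 2 Hoxb1Mu libraries.

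Both Hoxb1Mu libraries were below both WT libraries for 46 members (56.8%, against 27.1% of all genes). They were above both for 9 (11.1%, against 26.4%) and overlapped them for 26. Of all genes with a mean of at least 1000, the level of 65 members, 35.4% lay below both and 22.3% above both. The 2 mutant libraries were not alike in size. Relative to the WT mean, the median over the 81 members was -0.059 in Hoxb1Mu 1 and -0.12 in Hoxb1Mu 2, and Hoxb1Mu 2 was the lower of the pair for 63 members (77.8%, against 50.4% of all genes). Hoxb1Mu 1 alone lay below both WT libraries for 47 members and Hoxb1Mu 2 for 65, compared with 37.0% and 39.4% of all genes. Hoxb1Mu 2 is also the library with the lower yolk sac and the higher cardiomyocyte marker levels.

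**Figure D1:**
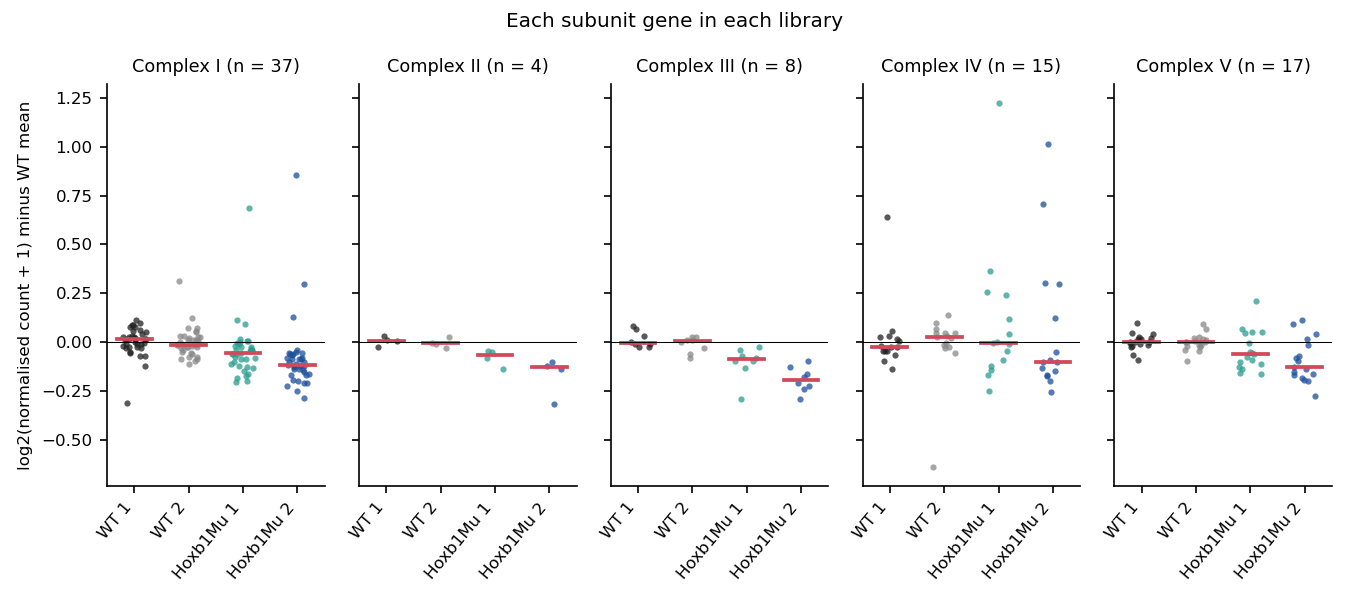
Each point is 1 subunit gene in 1 library, plotted as log2(normalised count + 1) minus the mean of the 2 WT libraries (y axis), by complex and library (x axis), with red lines at the medians. The medians of the complex III genes lie at -0.089 in Hoxb1Mu 1 and -0.20 in Hoxb1Mu 2, and a few complex I and complex IV genes stand well above 0 in both Hoxb1Mu libraries.

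No member passed limma across all genes at an adjusted p under 0.05, and no gene of the 15760 did (0%). The smallest limma adjusted p among members was 0.155, and 18 members lower and 4 higher had an unadjusted p under 0.05 (all genes 9.82% lower and 8.8% higher). edgeR with TMM factors on the recovered reads also called 0 members, with 21 of 81 at an unadjusted p under 0.05, where 18.3% of the 15732 genes it kept had such a p and it called 0 of them. DESeq2 on the same reads called 6 of the 76 members for which it gave an adjusted p, where it called 4.72% of all genes. Of these 6, 5 were lower (6.58% of members, against 2.71% of all genes) and 1 was higher (1.32%, against 2.01%). The members that passed DESeq2 are Ndufa4l2, which rose, and Uqcrq, Cox8a, Atp5a1, Atp5b and Atp5g3, which fell by that test alone. Adjusted p-values given below for single genes are of DESeq2 unless limma is named.

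**Figure D2:**
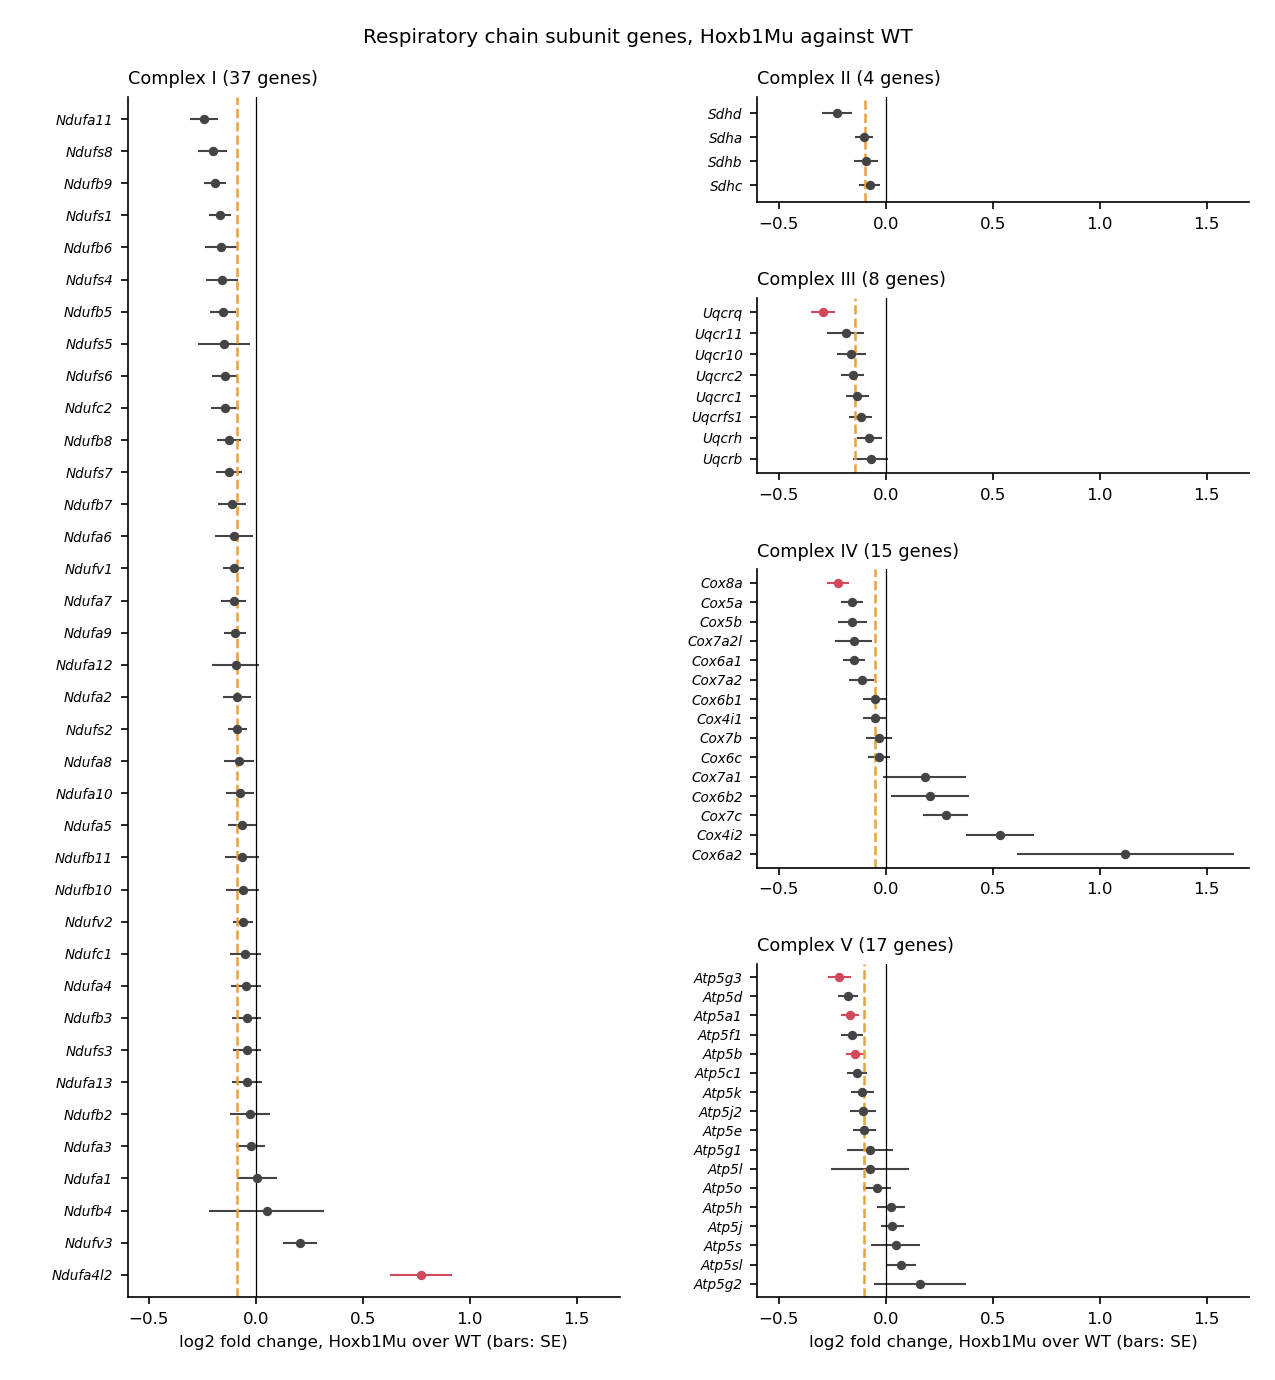
Log2 fold change in Hoxb1Mu relative to WT (x axis, bars 1 SE, limma, 2 libraries per group) for each of the 81 genes (y axis), by complex. Red marks the 6 genes called by DESeq2 and the dashed line the median of the complex, which runs from -0.14 in complex III to -0.048 in complex IV.

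The lower values lay mostly among members with high counts. Among the 65 members whose mean reached 1000 normalised counts, 61 were lower in Hoxb1Mu, with a median of -0.11. Of all 6830 genes at that level 57.3% were lower, with a median of -0.022. Both Hoxb1Mu libraries were below both WT libraries for 45 of the 65 (69.2%, against 35.4% of the 6830). DESeq2 called 5 of the 65 lower (7.69%, against 3.40%). Shares at high counts given below are those of all genes at this level. Among the 16 members with a lower mean, 10 were higher, with a median of 0.062 against 0.043 for all 8930 genes of that kind. The low group holds the 5 tissue-restricted isoforms described below, all of which were higher. Its other higher members were Ndufb4, Cox7c, Atp5g2, Atp5s and Atp5sl, and 6 members were lower.

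In complex I, the entry point of electrons from NADH, 33 of 37 genes were lower in Hoxb1Mu, with a median of -0.088. Both mutant libraries were below both WT libraries for 20 of the 37 (54.1%, against 27.1% of all genes and 35.4% at high counts). All 7 genes for the conserved core subunits, which hold the flavin and iron-sulphur clusters, were lower in both Hoxb1Mu libraries (median -0.10, from -0.20 to -0.042). Of the 28 accessory subunit genes, 25 were lower and 3 higher (median -0.092). Hoxb1Mu 2 was below Hoxb1Mu 1 for 3 of the 7 core genes and for 23 of the 28 accessory genes, while the median was lower in Hoxb1Mu 2 for both groups (-0.088 and -0.10 for core, -0.048 and -0.12 for accessory genes in Hoxb1Mu 1 and 2). The core and accessory genes were not tested against each other. Without Hoxb1Mu 2 the median of complex I was -0.056.

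Ndufa11, an accessory subunit of the membrane arm, had 1514 and 1484 normalised counts in WT and 1303 and 1229 in Hoxb1Mu (log2 fold change -0.24 ± 0.065 SE, adjusted p = 0.17). Ndufs8, a core subunit that carries iron-sulphur clusters, had 1202 and 1250 in WT and 1064 and 1066 in Hoxb1Mu (-0.20 ± 0.066, adjusted p = 0.34). Neither gene's groups overlapped, and neither passed the test. Ndufv3, an accessory subunit at the NADH-binding end, went the other way with 1798 and 1733 in WT and 1907 and 2171 in Hoxb1Mu (0.21 ± 0.078, adjusted p = 0.28), again without overlap, and at 0.11 without Hoxb1Mu 2. The other complex I genes that were lower lay between -0.19 (Ndufb9) and -0.024 (Ndufa3), and Ndufa1 and Ndufb4 had log2 fold changes of 0.0047 and 0.051 with standard errors of 0.093 and 0.27.

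Ndufa4l2 and Ndufa4 carry complex I symbols, but Ndufa4 is now known as a subunit associated with complex IV, and Ndufa4l2 is its paralogue, known from cultured cells as a gene induced at low oxygen. Ndufa4l2 had 198 and 168 normalised counts in WT and 294 and 331 in Hoxb1Mu. Both mutant libraries were above both WT libraries. The log2 fold change was 0.77 ± 0.14, a 1.71-fold rise with an adjusted p of 0.029 by DESeq2 and 0.155 by limma. Ndufa4 had 5238 and 4649 in WT and 4923 and 4647 in Hoxb1Mu, so that the groups overlapped (-0.045 ± 0.071). Ndufa4l2 lies at chr10:127514967-127517154 (mm10, plus strand) and shares 32 bases of exon with Shmt2 on the opposite strand. Whether counting used strand is not given in the sources used here.

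Complex II is both an enzyme of the citric acid cycle and an entry point to the chain, and all of its subunits are nuclear. Its 4 genes were lower in both Hoxb1Mu libraries than in either WT library, as were 27.1% of all genes and 35.4% at high counts. Sdha, the flavoprotein, had 10569 and 10420 normalised counts in WT and 9921 and 9649 in Hoxb1Mu (-0.10 ± 0.043). Sdhb, the iron-sulphur subunit, had a log2 fold change of -0.093 ± 0.056, and Sdhc, a membrane anchor, of -0.074 ± 0.049. Sdhd, the other membrane anchor, had 5955 and 5726 in WT and 5309 and 4687 in Hoxb1Mu (-0.23 ± 0.070, adjusted p = 0.078). Of the 4, Sdhd came closest to the threshold. Leaving out WT 1, WT 2 or Hoxb1Mu 2 raised its DESeq2 adjusted p to 0.896, 0.570 and 0.999. Leaving out Hoxb1Mu 1 gave 0.0498, in a fit where only the WT libraries give a spread. Its log2 fold change was -0.14 without Hoxb1Mu 2.

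All 8 complex III genes were lower, with the lowest median of the 5 complexes (-0.14). For 6 of them (75%, against 27.1% of all genes and 35.4% at high counts) both Hoxb1Mu libraries were below both WT libraries. Uqcrq, the small ubiquinone-binding subunit, had 2186 and 2215 normalised counts in WT and 1795 and 1796 in Hoxb1Mu. The libraries of each genotype agreed closely and the groups were well apart. The log2 fold change of -0.29 ± 0.054, or -18.4%, was the lowest of any member (adjusted p = 0.019 by DESeq2, 0.155 by limma).

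Uqcr11, a small subunit, had 1140 and 1019 in WT and 983 and 911 in Hoxb1Mu (-0.19 ± 0.087, adjusted p = 0.50). The core proteins Uqcrc1 and Uqcrc2, which face the matrix, had log2 fold changes of -0.13 ± 0.053 and -0.15 ± 0.054, and the Rieske iron-sulphur protein gene Uqcrfs1 had -0.12 ± 0.054. The groups overlapped only for Uqcrh, the hinge protein of the cytochrome c contact (-0.076 ± 0.058), and Uqcrb, a ubiquinone-binding subunit (913 and 835 in WT, 849 and 815 in Hoxb1Mu, -0.069 ± 0.082).

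Complex IV, cytochrome c oxidase, was split between common and restricted subunits. Over its 15 genes the median log2 fold change was -0.048, and this rested on Hoxb1Mu 2, since the median was -0.0027 without that library and -0.10 without Hoxb1Mu 1. Of the 11 genes for subunits that are not restricted isoforms, 10 were lower, with a median of -0.11. Cox8a, the ubiquitous form of subunit VIII, had 4020 and 3887 normalised counts in WT and 3326 and 3439 in Hoxb1Mu, without overlap (-0.22 ± 0.051, or -14.4%, adjusted p = 0.036 by DESeq2, 0.155 by limma). Cox5a, a matrix-side subunit, had 2868 and 2942 in WT and 2584 and 2617 in Hoxb1Mu (-0.16 ± 0.051, adjusted p = 0.25). The exception was Cox7c, a small membrane subunit, with 408 and 466 in WT and 521 and 539 in Hoxb1Mu (0.28 ± 0.11, adjusted p = 0.44).

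The restricted isoforms had higher levels in Hoxb1Mu. Over Cox4i2, Cox6a2, Cox6b2, Cox7a1 and Ndufa4l2, the log2 fold change was above 0 for 5 of 5, with a median of 0.54. Both mutant libraries were above both WT libraries for 4 of them. The same held for 29.6% of all genes with a mean under 1000, the level at which these 5 fall. Of those 8930 genes, 4984 were higher in Hoxb1Mu. Cox4i2, the lung isoform of subunit IV, had 184 and 176 normalised counts in WT and 232 and 294 in Hoxb1Mu (0.54 ± 0.16, adjusted p = 0.24). Cox6a2 and Cox7a1 are isoforms of heart and skeletal muscle. Cox6a2 had 20.2 and 7.69 in WT and 30.8 and 26.4 in Hoxb1Mu (1.12 ± 0.51), and Cox7a1 had 71.2 and 77.9 in WT and 88.2 and 81.1 in Hoxb1Mu (0.18 ± 0.20). The value of Cox6a2 was 1.76 without WT 1 and 0.48 without WT 2, so its size rests on which WT library is used. DESeq2 gave neither gene an adjusted p, because of its filter on low counts. Cox6b2, the testis isoform, overlapped between groups with 107 and 130 in WT and 128 and 145 in Hoxb1Mu (0.21 ± 0.18). Only Ndufa4l2 of these 5 passed any of the tests. The higher cardiomyocyte marker levels given above ran the same way as these genes, and their part was not tested.

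Per kilobase of exon, every restricted isoform stayed far below its common partner. Cox4i2 reached 5.46% and 4.92% of Cox4i1 in WT and 6.69% and 9.05% in Hoxb1Mu. Ndufa4l2 reached 4.76% and 4.57% of Ndufa4 in WT and 7.54% and 8.98% in Hoxb1Mu. For all 5 restricted isoforms both Hoxb1Mu libraries were above both WT libraries, though barely for Cox6b2 (1.92% in Hoxb1Mu 1, 1.91% in WT 2). For Cox4i2 and Ndufa4l2, Hoxb1Mu 2 was the higher of the mutant libraries. Cox7a1 came to 3.02% and 3.57% of Cox7a2 in WT and 4.14% and 3.91% in Hoxb1Mu, and Cox6a2 to less than 1% of Cox6a1 in every library. The common partners themselves had log2 fold changes of -0.048 (Cox4i1), -0.15 (Cox6a1), -0.051 (Cox6b1) and -0.11 (Cox7a2). Cox7a2l, a relative of Cox7a2 that joins complexes III and IV in supercomplexes, had -0.15 ± 0.087.

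**Figure D3:**
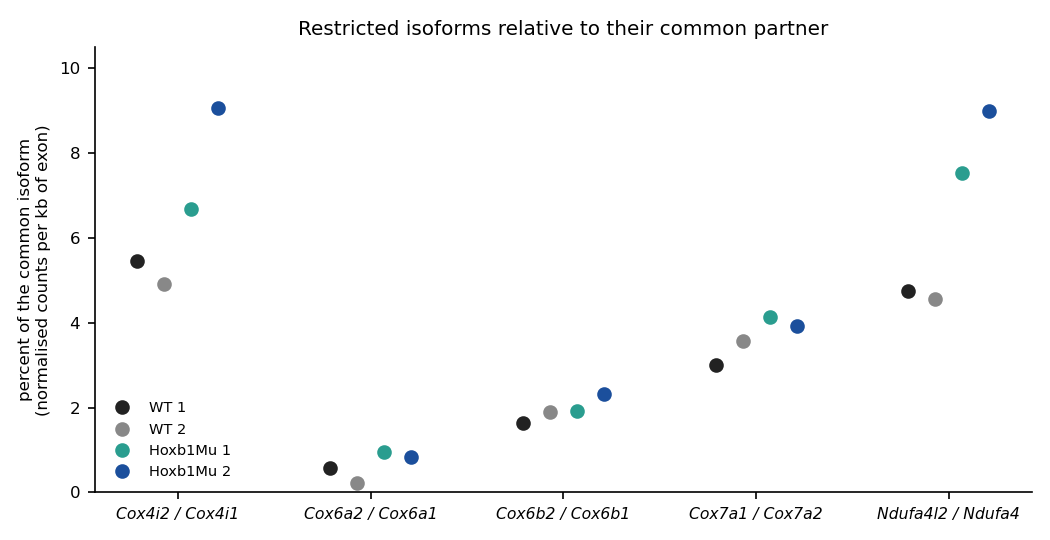
Normalised counts per kilobase of exon of 5 restricted isoforms as a percentage of their common partner (y axis), with 1 point per library. The percentages of all 5 are higher in both Hoxb1Mu libraries than in both WT libraries, though Cox6b2 in Hoxb1Mu 1 (1.92%) is almost level with WT 2 (1.91%).

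Complex V held 3 of the 5 genes that DESeq2 called lower. These were 20% of its 15 genes with an adjusted p, against 2.71% of all genes and 3.40% at high counts. The 3 have the highest means of any member (55396 for Atp5b, 33701 for Atp5a1 and 11411 for Atp5g3). The median log2 fold change of complex V was -0.10, where that of complex III was -0.14. All 5 genes of the catalytic F1 head were lower in both Hoxb1Mu libraries (against 27.1% of all genes and 35.4% at high counts). Their median was -0.14. Atp5a1, the alpha subunit, had 35703 and 35599 normalised counts in WT and 32395 and 31106 in Hoxb1Mu. Atp5b, the catalytic beta subunit, had 57312 and 59030 in WT and 53304 and 51937 in Hoxb1Mu. The groups were apart for both genes although the differences were small, at -0.17 ± 0.042 or -11.0% for Atp5a1 (adjusted p = 0.010 by DESeq2, 0.16 by limma) and -0.14 ± 0.042 or -9.54% for Atp5b (0.025 and 0.18). Atp5d, the delta subunit, had 4525 and 4598 in WT and 4069 and 4008 in Hoxb1Mu (-0.18 ± 0.047, adjusted p = 0.092). Per kilobase of exon, Atp5b had the highest level of any member in WT (13729 ± 287, SD, n = 2) and Atp5a1 the next (11372 ± 23.5). In the annotation, 129 bases of Atp5a1 exon are shared with Haus1 on the opposite strand.

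The c ring is made from 3 genes that encode the same mature protein. Atp5g3 had 12278 and 12252 normalised counts in WT and 10995 and 10120 in Hoxb1Mu, without overlap (-0.22 ± 0.053, or -14.0%, adjusted p = 0.014 by DESeq2, 0.16 by limma). Atp5g1 had 486 and 425 in WT and 431 and 432 in Hoxb1Mu, so the groups overlapped (-0.075 ± 0.11), and without WT 1 its log2 fold change was 0.021. Atp5g2 had 57.4 and 57.7 in WT and 66.6 and 62.3 in Hoxb1Mu (0.16 ± 0.21). Atp5g3 had the highest counts of the 3 in every library, and per kilobase of exon Atp5g1 and Atp5g2 each stayed below 2% of it. The length used is the union of all annotated exons, 4912 bases for Atp5g1 and 2181 for Atp5g3. A longer union lowers the level per kilobase. Reads of these genes' shared coding parts could be split or lost in counting, so their separate levels are uncertain.

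Among the stalk genes of complex V, Atp5f1 was lower without overlap (-0.16 ± 0.051), while Atp5h, Atp5j and Atp5o lay at 0.025 ± 0.067, 0.030 ± 0.054 and -0.042 ± 0.065 with overlapping groups. The difference between the F1 head and the stalk genes was not tested. The 3 membrane accessory genes Atp5j2, Atp5k and Atp5l were lower (-0.11, -0.11 and -0.074). Atp5s and Atp5sl match the symbol rule but do not encode subunits of the enzyme. Atp5s, a coupling factor, had 268 and 259 in WT and 273 and 271 in Hoxb1Mu. Atp5sl, known as an assembly factor of complex I, had 898 and 880 in WT and 921 and 949 in Hoxb1Mu. Both were above WT in both mutant libraries, at 0.046 ± 0.11 and 0.073 ± 0.071, and neither passed the test.

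**Figure D4:**
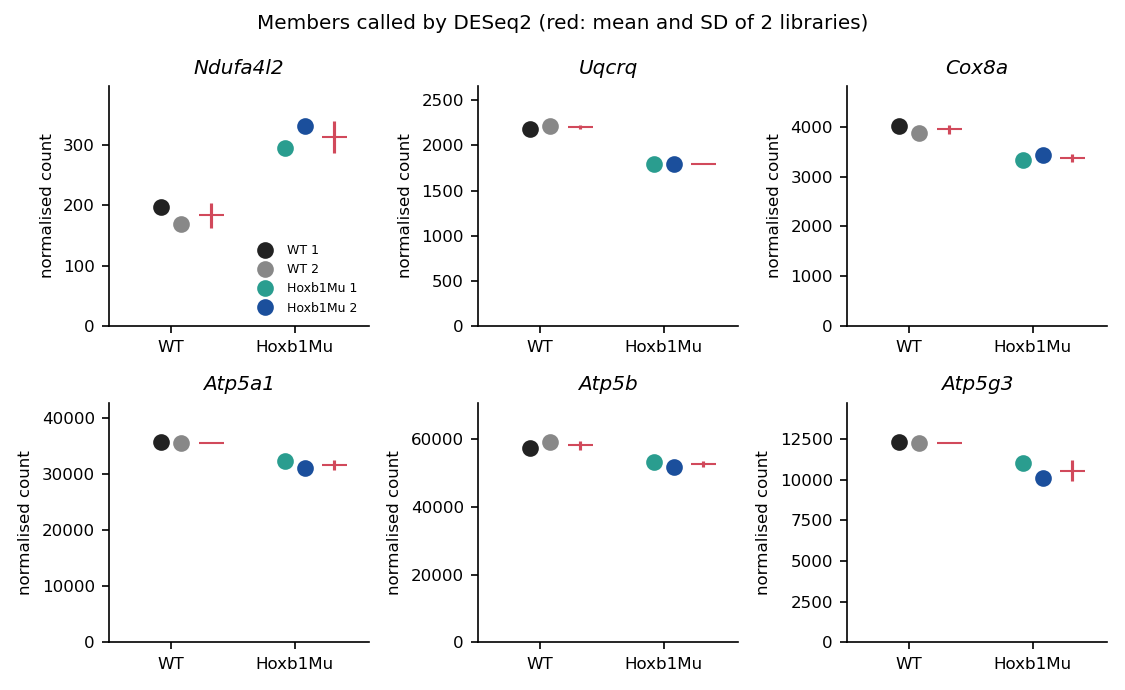
Normalised counts (y axes, from 0) of the 6 members called by DESeq2 in each library, with red marks for the mean and SD of 2 libraries. The groups do not overlap for any of the 6, and the differences of Atp5a1 and Atp5b are small beside their levels.

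Most of these calls were lost with fewer libraries. In DESeq2 fits that left out a library, none of the 6 was called without WT 1, WT 2 or Hoxb1Mu 2, where 88, 63 and 119 genes in all were called, against 556 in the full fit. Without Hoxb1Mu 1, 582 genes were called, and of the 6 only Atp5g3 (adjusted p = 0.040). The log2 fold changes of the 6 moved by less than 1.5 times in the limma fits without a library, for example between -0.30 and -0.28 for Uqcrq and between -0.25 and -0.20 for Cox8a. limma without Hoxb1Mu 1 called Ndufa4l2 as higher and Atp5g3 and Sdhd as lower, in a fit where the lone Hoxb1Mu library is assumed to vary like the WT libraries and 884 genes in all were called. The direction of all 6 held in every fit run.

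Promoters of 67 of the 81 members were found in RefSeq (GRCm38.p6) and searched on both strands from 250 bases before to 50 after the start. The factors NRF1, GABP (an ETS factor) and YY1 are known activators of nuclear respiratory genes. The NRF1 core GCATGCGC was in 10 of the 67 (14.9%, against 3.05% of 27025 genes), the ETS core CCGGAAG in 16 (23.9%, against 9.93%) and the YY1 core AAGATGG in 12 (17.9%, against 7.28%), while CCAAT, bound by NF-Y, was in 30 (44.8%, against 41.1%). At least 1 of the NRF1, ETS and YY1 cores was in 32 members (47.8%, against 18.6%). The median log2 fold change was -0.11 for these 32 and -0.075 for the 35 without a core, so the members were mostly lower in both sets. A match is a description of letters and not a measured site. The 27025 genes are all genes with a promoter entry, whether or not they were read in these libraries. All members were read here, so these shares are not matched for expression.

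The upstream sequences of 3 genes that fell by DESeq2 are shown so that the matches can be seen on the DNA, with no NRF1, ETS or YY1 core in the printed stretch. Atp5b and Atp5g3 also have none in the searched window, whereas Cox8a counts among the 16 genes with an ETS core, which runs past the end of the stretch shown. Capitals mark CCAAT on either strand (ATTGG on the other strand), and each sequence reads 5′ to 3′ toward the gene and ends before the first annotated transcribed base. For Atp5b this is 34 bases before the RefSeq start, since GENCODE begins the gene earlier. The Atp5b stretch is chr10:128083057-128083272 (plus strand), that of Atp5g3 chr2:73911327-73911576 (minus strand) and that of Cox8a chr19:7217617-7217866 (minus strand), all GRCm38.p6.
Atp5b: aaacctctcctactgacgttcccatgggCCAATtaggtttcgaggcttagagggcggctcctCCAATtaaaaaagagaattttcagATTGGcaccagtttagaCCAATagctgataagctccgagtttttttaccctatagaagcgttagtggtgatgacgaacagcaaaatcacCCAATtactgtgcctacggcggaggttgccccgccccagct
Atp5g3: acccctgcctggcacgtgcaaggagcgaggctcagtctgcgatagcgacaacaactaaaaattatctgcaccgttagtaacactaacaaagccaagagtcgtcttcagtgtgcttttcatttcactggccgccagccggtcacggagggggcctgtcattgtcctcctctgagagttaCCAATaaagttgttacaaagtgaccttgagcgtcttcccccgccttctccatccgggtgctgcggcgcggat
Cox8a: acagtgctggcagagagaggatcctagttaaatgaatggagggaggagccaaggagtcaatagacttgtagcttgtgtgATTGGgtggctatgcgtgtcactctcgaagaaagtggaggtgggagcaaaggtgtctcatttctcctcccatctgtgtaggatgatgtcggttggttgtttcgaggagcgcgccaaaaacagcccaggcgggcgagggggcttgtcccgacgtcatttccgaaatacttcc
Atp5b held 5 matches, which begin 222, 188, 164, 147 and 75 bases before the RefSeq start. Atp5g3 held 1, at 72 bases, and Cox8a 1, at 171 bases.

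Other genes of the pathway were read from fixed lists. Cyc1, the cytochrome c1 subunit of complex III that the symbol rule leaves out, had 6172 and 6299 normalised counts in WT and 5554 and 5389 in Hoxb1Mu (-0.19 ± 0.046, adjusted p = 0.039 by DESeq2). It fell by that test, but in no DESeq2 fit without a library did it pass (adjusted p from 0.38 to 1.0). Of 5 related genes outside the rule (Ndufab1, Cyc1, Cycs, Usmg5 and Atpif1), not all of which encode subunits, 4 were lower. Of the factors that assemble the complexes, 10 of 14 tested for complex I, 2 of 4 for complex II, 3 of 6 for complex III, 16 of 19 for complex IV and 2 of 4 for complex V were lower, with medians of -0.031, -0.0077, -0.015, -0.078 and -0.023, and DESeq2 and limma called none of them. Coenzyme Q synthesis genes were lower for 9 of 13 (median -0.046), with none called.

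The citric acid cycle, which supplies the chain with NADH and succinate, ran parallel to the subunit genes. All 13 of its genes were lower in Hoxb1Mu, with a median of -0.10. Both mutant libraries were below both WT libraries for 11 (84.6%, against 27.1% of all genes and 35.4% at high counts). Neither limma nor DESeq2 called any. Their medians relative to the WT mean were -0.074 in Hoxb1Mu 1 and -0.15 in Hoxb1Mu 2, in the same order as the subunit genes. Cs, citrate synthase, had 10266 and 10361 normalised counts in WT and 9737 and 9245 in Hoxb1Mu (-0.12 ± 0.046).

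The mRNAs encoded by mitochondrial DNA were also lower. Of the 13, 7 were in the table. All 7 were lower in both Hoxb1Mu libraries (median -0.34), against 27.1% of all genes and 35.4% at high counts. DESeq2 called 6 lower, all but mt-Nd5 (against 2.71% of all genes), and limma called none. In the 4 DESeq2 fits without a library, mt-Nd1, mt-Nd4, mt-Cytb and mt-Co1 were called each time, mt-Nd6 only without Hoxb1Mu 2 and mt-Nd2 in none. mt-Co1, the catalytic subunit of complex IV, had 109607 and 115815 normalised counts in WT and 81357 and 79899 in Hoxb1Mu (-0.48 ± 0.045, adjusted p = 2.7e-21 by DESeq2, 0.084 by limma). The order of the mutant libraries was the reverse of that of the nuclear genes. Relative to the WT mean, the median was -0.46 in Hoxb1Mu 1 and -0.27 in Hoxb1Mu 2, and Hoxb1Mu 2 was below Hoxb1Mu 1 for 1 of 7 genes. All mitochondrially encoded genes in the table together took 1.31% and 1.36% of listed reads in WT and 1.04% and 1.12% in Hoxb1Mu.

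Of 15 regulators of mitochondrial biogenesis, 7 were higher and 8 lower (median -0.039). Polg, the mitochondrial DNA polymerase, was the only one that DESeq2 called (6.67% of the 15, against 4.72% of all genes). It had 7492 and 8429 normalised counts in WT and 6373 and 6262 in Hoxb1Mu (-0.33 ± 0.065, adjusted p = 8.3e-04 by DESeq2). It was not called without WT 2 (adjusted p = 0.29) or without Hoxb1Mu 2 (0.19). Nrf1 had a log2 fold change of -0.095 ± 0.054, Gabpa of 0.0018 ± 0.054, Yy1 of -0.13 ± 0.054 and Tfam, which packages and transcribes mitochondrial DNA, of 0.033 ± 0.051. Ppargc1a, a coactivator of these factors, had 130 and 125 in WT and 148 and 164 in Hoxb1Mu (0.29 ± 0.16).

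**Figure D5:**
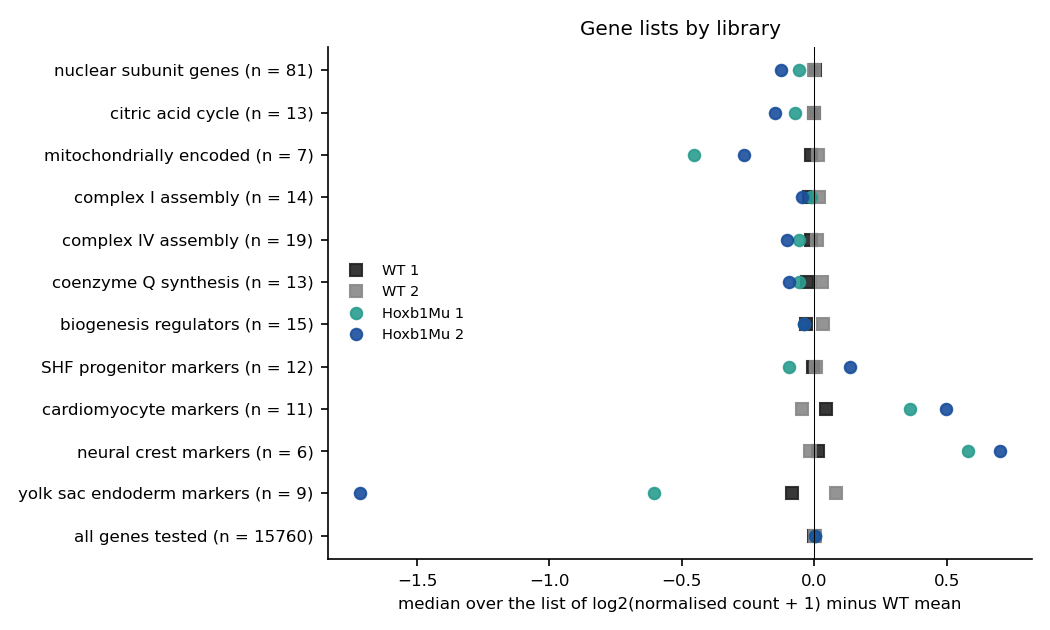
Median over each gene list of log2(normalised count + 1) minus the WT mean (x axis), with squares for the WT and circles for the Hoxb1Mu libraries. The nuclear subunit and citric acid cycle genes lie below 0 in both Hoxb1Mu libraries and lower in Hoxb1Mu 2, the mitochondrially encoded mRNAs are lower in Hoxb1Mu 1, and the yolk sac endoderm markers lie at -0.61 in Hoxb1Mu 1 and -1.71 in Hoxb1Mu 2.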

How the data were processed

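The study sequenced RNA of the SHF region at E8.5 in 2 WT and 2 Hoxb1Mu libraries. Per the labels and the methods of the study, cDNA was amplified from 2 ng of total RNA with the Ovation system. The methods also name a TruSeq kit for library preparation. Per the submitters' processing notes, bcl2fastq 2.17.1.14, STAR 2.5.2 (mm10), HTSeq, R 3.3.4 and DESeq2 were used. The annotation release and the use of strand in counting are not given in the sources used here. The deposited signal of a gene in a library is its read count, scaled by the authors with a size factor of that library. The authors' own comparison was deposited as a log2 fold change, a score (the Wald statistic) and p-values, and none of these was used. In the table, 13 gene symbols appear as dates.

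Values were whole multiples of a step in 100% of cases (tolerance 0.001 of a read), which gave back reads. The reads carry no molecular identifiers. limma-trend (limma 3.58.1, R 4.3.3) was fitted to log2(value + 1) for 15760 genes (mean of 10 or more), without covariates, with Benjamini-Hochberg adjustment over all of them and a threshold of 0.05. Fold changes are on this scale, where the pseudocount draws those of low genes toward 0 compared with the same fit without it. DESeq2 1.42.0 (no adjusted p for 3972 genes, through its filter on low counts) and edgeR 4.0.16 (quasi-likelihood, TMM) were run on the recovered reads as alternatives. The study's methods used count models, but the deposited values are not counts, so limma was the main test. All tests were 2-sided. The code was tested on simulated data.

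Members and lists were chosen with earlier results of these data known. Named with values were, per complex I, III, IV and V, the 2 largest rises and 2 largest falls with a mean of at least 100, members called by limma or DESeq2, isoform sets, the Sdh genes and Hoxb1. Other members named, and all genes outside the 81, were chosen after their values were seen or as examples of their list. Coordinates and exon lengths came from GENCODE vM21 (Atp5o, with 2 entries, was left out of lengths). An exon length is the union of all annotated exons of a gene, which can exceed the length of its mRNA. Short, highly expressed subunit genes have processed pseudogenes, and reads shared with them may be lost.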

Additional observations from a re-analysis of the deposited data

How the results depend on the processing

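The median over all members stayed below 0 in every fit, from -0.12 to -0.059 when a library was left out in turn, and 12 to 18 members were then higher. Leaving out Hoxb1Mu 2 gave the smallest medians, at -0.059 for all members, -0.056 for complex I, -0.089 for complex III, -0.0027 for complex IV and -0.060 for complex V. The ranges over the libraries left out were -0.20 to -0.089 for complex III and -0.13 to -0.060 for complex V. DESeq2 without Hoxb1Mu 2, chosen after seeing the data, gave -0.059 for all members, -0.064 for complex II, -0.087 for complex III and -0.059 for complex V. Members called rose from 0 higher and 0 lower to 1 and 5 with DESeq2. Without a library, limma called 0 to 1 higher and 0 to 2 lower (1 and 2 without Hoxb1Mu 1), and DESeq2 without Hoxb1Mu 1 called 2 lower. The other alternatives (pseudocount 8, no filter, a mean of at least 50, edgeR and both equal-total scalings) called 0. Equal totals moved the median of all genes by 0.028 and gave a member median of -0.067 with 16 higher. Leaving out 1 library moved the log2 fold change of 18 of 33 named members by over 1.5 times, none of them among the 6 called by DESeq2. The direction turned for 3 of 33 named members, all near 0. Without WT 1, Atp5g1 was at 0.021 (range over the libraries left out -0.17 to 0.021; 0.019 by DESeq2) and Ndufa4 at 0.041 (0.039 by DESeq2), and Cox6b1 was at 0.0001 by DESeq2 without Hoxb1Mu 2. The cause was not tested. No paired analysis was possible because the labels tie no WT library to a Hoxb1Mu library.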
